A study of Mus musculus with 3 samples.

Results

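The genes described here encode, in the nucleus, the enzymes of oxidative phosphorylation, and they were read in RNA sequencing of mouse epiblast stem cells (EpiSCs). A gene belonged to the set when its mouse symbol, taken from its Entrez identifier, began with Nduf followed by a, b, c, s or v, was Sdha, Sdhb, Sdhc, Sdhd or Cyc1, or began with Uqcr, with Cox and a digit from 4 to 8, or with Atp5. That rule found 92 genes of the 17209 listed in at least 1 of the 3 deposited tables. They were 36 subunits of complex I and 8 complex I assembly factors (Ndufaf), 4 subunits of complex II, 9 of complex III, 16 of complex IV (with Ndufa4 and Ndufa4l2), 17 of complex V, the supercomplex factor Cox7a2l and the pseudogene Ndufs5-ps. No measured value entered the rule.

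Oxidative phosphorylation takes place in the inner mitochondrial membrane. Complex I takes electrons from NADH and complex II takes them from succinate; ubiquinone carries them to complex III, cytochrome c carries them on to complex IV, and complex IV passes them to oxygen. Complexes I, III and IV pump protons across the membrane as they work, and complex V, the ATP synthase, lets the protons back and makes ATP. Complex II is encoded wholly in the nucleus, while each of the others also holds subunits encoded by mitochondrial DNA, which were not analysed here. Primed pluripotent cells such as EpiSCs are known for leaning on glycolysis more than naive embryonic stem cells do.

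EpiSCs are pluripotent cells that resemble the epiblast after implantation. Here they were of strain 129, at passage 1 by the labels, and were routinely grown on gelatin in serum with 2 inhibitors, IWR1 and Y27632 (Y27). IWR1 blocks tankyrases and so dampens Wnt signalling, and Y27 is a kinase inhibitor. There were 3 libraries, 1 per group: NT, from cells kept overnight without either inhibitor; IWR1, from cells given 2 µM IWR1 for 12 h; and Y27, from cells given 0.5 µM Y27 for 12 h, a low dose for this inhibitor whose unit was not checked. Nothing in the labels tells if treated cells had an inhibitor-free period beforehand, so removal of an inhibitor in NT and its presence in a treated library cannot be told apart. With 1 library per group there was no replicate check on any difference, and no p-value was computed. In bulk RNA of this kind, fewer cells of a type and less RNA per cell cannot be told apart.

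Deposited expected counts summed to between 5459332 and 5767550 per library. All 7 EpiSC markers checked stood at 1 CPM (counts scaled to a common library size) or more in each library. Their sum was 2439 CPM for NT, 2960 CPM for IWR1 and 2175 CPM for Y27. The markers did not move together. Pou5f1, the highest, had 1462, 1318 and 1163 CPM in that order, and Nanog was also lower than NT in both treated libraries. Sox2, Fgf5, Dnmt3b and Otx2 were higher than NT in both, and Utf1 was higher in IWR1 and lower in Y27. Of 5 fibroblast or feeder markers 4 reached 1 CPM in each library, and their sum was 114, 70.7 and 55.4 CPM in that order of libraries, with Postn at or near 0. The extraembryonic endoderm markers summed to between 1.07 and 3.58 CPM with Sox17 and Afp at 0, neither blood marker had a read, and the muscle markers summed to at most 6.72 CPM. The summed fibroblast or feeder markers were therefore highest in NT, as were most genes described below. Col1a1 held most of that sum, with 82.2, 54.7 and 31.0 CPM in NT, IWR1 and Y27. Pdgfrb had 13.8, 1.97 and 12.0 CPM. Whether fibroblasts or feeder cells were present, and their part in those differences, was not tested.

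Some promoters of this set hold motifs of NRF1 and YY1, transcription factors known to act on nuclear genes of mitochondrial proteins, so a few are printed here as the sequence context of genes whose levels follow. RefSeq promoters (build GRCm38.p6, 250 bases before to 50 after a start site) were matched for 75 of the 92 genes. In the first set, all of it upstream of the start site, capitals mark the NRF1 motif, which reads the same on both strands. Atp5g2 (complex V, chr15:102671048-102671139, minus strand), Atp5k (complex V, chr5:108434400-108434499, minus strand), Cox6a1 (complex IV, chr5:115349061-115349170, minus strand), Ndufa11 (complex I, chr17:56717652-56717761, plus strand) and Ndufaf4 (complex I assembly, chr4:24897920-24898029, plus strand) read, 5′ to 3′:
Atp5g2: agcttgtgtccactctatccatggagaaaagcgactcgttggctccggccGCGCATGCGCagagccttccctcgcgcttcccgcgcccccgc
Atp5k: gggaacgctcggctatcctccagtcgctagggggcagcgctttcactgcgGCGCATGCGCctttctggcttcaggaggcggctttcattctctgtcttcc
Cox6a1: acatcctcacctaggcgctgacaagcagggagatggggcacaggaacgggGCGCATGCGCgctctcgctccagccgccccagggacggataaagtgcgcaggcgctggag
Ndufa11: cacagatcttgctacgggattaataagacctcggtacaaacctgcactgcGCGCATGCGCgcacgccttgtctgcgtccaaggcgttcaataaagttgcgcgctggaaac
Ndufaf4: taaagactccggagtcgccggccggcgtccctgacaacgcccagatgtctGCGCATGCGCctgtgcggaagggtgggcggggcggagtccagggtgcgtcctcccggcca

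In the second set, 30 bases each around the YY1 motif, capitals mark AAGATGGCG. Atp5j (complex V, chr16:84835046-84835075, minus strand) held it before the start site, while Atp5j2 (complex V, chr5:145191500-145191529, minus strand), Ndufa9 (complex I, chr6:126849097-126849126, minus strand) and Ndufs7 (complex I, chr10:80249462-80249491, plus strand) held it just after:
Atp5j: aaagtgtaggaAAGATGGCGgagtcttagc
Atp5j2: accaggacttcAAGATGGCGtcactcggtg
Ndufa9: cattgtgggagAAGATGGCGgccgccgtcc
Ndufs7: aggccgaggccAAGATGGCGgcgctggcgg

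Searched on both strands over the whole 300 bases, the NRF1 motif in capitals above stood in a promoter of 7 of the 75 genes (9.33%), against 2.27% of 10287 genes compared below and 1.07% of all 27025 genes with a promoter. A looser form, with any base at the fifth position, includes the former and stood in 25.3% of the set, 11.5% of the genes compared and 5.19% of all. For AAGATGGCG the shares were 10.7%, 3.57% and 1.64%. The ETS motif CCGGAAG, which the factor GABP can bind, stood in 25.3%, 19.8% and 9.93%. The Sp1 motif GGGCGG was less frequent in the set than in the genes compared, at 46.7% against 70.1%, with 38.2% over all genes. These counts describe letters in a window and carry no test.

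The nuclear genes of oxidative phosphorylation were short and highly expressed in EpiSCs. In NT the 89 genes that passed the level filter (an average of 1 CPM or more) had a median FPKM (a level per transcript length, which allows genes to be compared) of 101, against 9.37 over all genes that passed. Of the 92 genes, 87 lay above the median of all genes listed in NT, 6.15, and 71 at or above percentile 90, but 1 alone, Atp5b, was among the 100 highest. Their median transcript length was 707 bases over those 89, against 2886 bases over all 12955 that passed. The 3 that did not pass were Cox4i2 and Cox7b2, each with 1 read in Y27 and none elsewhere, and Ndufa4l2, with 1, 1 and 2 reads in NT, IWR1 and Y27. No read allows a level of up to 0.531 CPM in NT and 0.536 CPM in IWR1, from 3 counts of the library. The summed estimated counts of the set made up 1.12% of the NT library, 1.01% of IWR1 and 0.963% of Y27.

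Levels differed by complex, and complex V and complex IV stood above the others. The median FPKM in NT, IWR1 and Y27 was 226, 185 and 176 for complex V, and 235, 253 and 236 for complex IV. For complex III it was 148, 143 and 141, for complex II 89.3, 76.6 and 75.7, and for complex I 76.2, 69.6 and 69.3. The complex I assembly factors, which help to build the enzyme and are not part of it, had medians of 11.5, 10.2 and 13.2, with Ndufaf8 highest in NT at 26.4 and Ndufaf5 lowest at 3.66. The order from complex IV and V down to III, then II, I and the assembly factors was thus seen in every library, though complexes overlapped gene by gene.

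**Figure D1:**
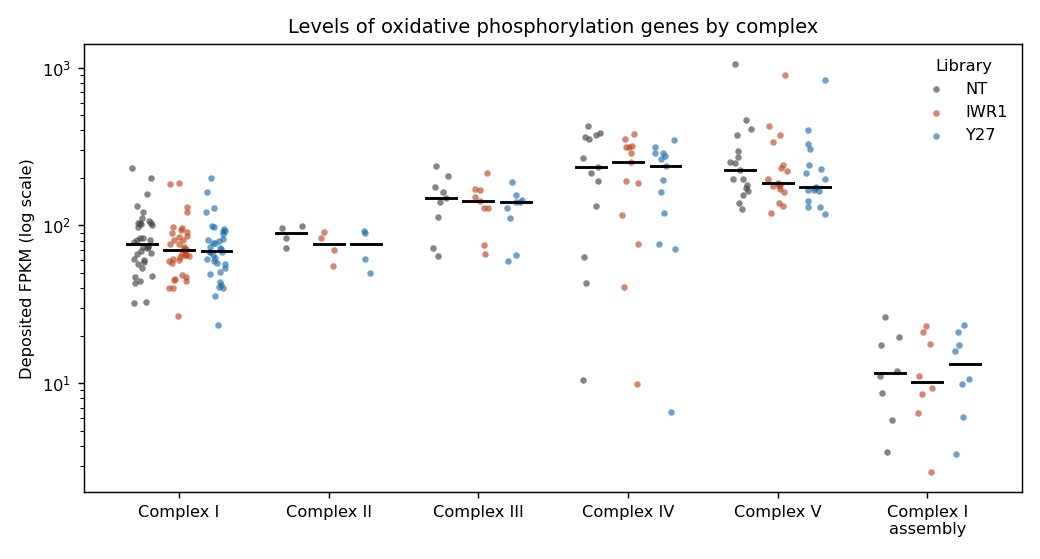
Deposited FPKM of each gene (log axis) by complex, in NT, IWR1 and Y27; each point is 1 gene in 1 library. Complex V reaches 1050 in NT with Atp5b, and the complex I assembly factors lie between 3.66 and 26.4 in NT.

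Within complex I, Ndufa7, an accessory subunit, had the highest level, with FPKM of 232, 186 and 200 in NT, IWR1 and Y27. Ndufa11, an accessory subunit in the membrane arm, had the lowest FPKM in NT, with 32.0, 26.5 and 23.3. Its listed length was 2661 bases, against a complex I median of 675. By reads it was not low, with 493 counts in NT against a complex I median of 345.5. The 7 core subunits, which carry the flavin and the iron-sulfur clusters, had a median of 65.8 in NT and the 29 accessory subunits 81.3. Among the core subunits Ndufs1, the largest, stood at 32.8.

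All 4 subunits of complex II lay close together. Sdha, the flavoprotein that oxidises succinate, had FPKM of 99.4, 91.5 and 91.7 in NT, IWR1 and Y27, and Sdhb, the iron-sulfur subunit, 83.0, 69.8 and 61.3. Of the membrane anchors, Sdhd had 95.7, 83.4 and 90.2, and Sdhc was the lowest of the complex in each library at 71.8, 55.5 and 50.3. The ratio of Sdha to Sdhb was 1.20, 1.31 and 1.49 in the same order.

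In complex III the small subunit Uqcrq was highest, with FPKM of 239, 216 and 187, and the core protein gene Uqcrc2 lowest in NT, with 64.0, 65.9 and 59.4. Its partner core protein Uqcrc1 stood at 140, 129 and 112, so that the FPKM ratio of Uqcrc1 to Uqcrc2 was 2.19, 1.96 and 1.88. Cyc1, which carries the cytochrome c1 heme, had 163, 150 and 141.

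For complex V, Atp5b, the catalytic beta subunit, had FPKM of 1050, 897 and 835, the highest of the whole set. Atp5a1, the alpha subunit, had 409, 372 and 330, so beta exceeded alpha per length by 2.57, 2.41 and 2.53 times. Together those genes held 26.4%, 25.6% and 24.6% of all counts of the set in NT, IWR1 and Y27. The lowest of complex V in NT was Atp5mpl, a small subunit, at 126, 120 and 119, so the lowest gene of complex V stood above the median of complex I.

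The 3 genes that encode the identical mature c subunit of the proton-driven rotor were all expressed. Their FPKM in NT was 156 for Atp5g1, 373 for Atp5g2 and 466 for Atp5g3, or 15.7%, 37.5% and 46.9% of their sum. In IWR1 the shares were 17.5%, 36.4% and 46.0%, and in Y27 15.6%, 36.6% and 47.8%. Their summed FPKM was 996 in NT, 923 in IWR1 and 836 in Y27.

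Cox7c, a small subunit, had the highest level of complex IV, with FPKM of 427, 383 and 348 in NT, IWR1 and Y27. Where complex IV has tissue isoforms, the widely expressed form carried nearly all of the reads. Cox4i1 had FPKM of 375, 316 and 290 in NT, IWR1 and Y27 while Cox4i2, the lung and hypoxia form, was listed only in Y27 at 0.26. Cox7b had 63.3, 76.6 and 75.7 against Cox7b2 at 0.34 in Y27 alone. Ndufa4 had 235, 288 and 265, and Ndufa4l2, its hypoxia-induced relative, 0.18, 0.18 and 0.38. Cox7a1, the heart and muscle form, had 10.5, 9.82 and 6.56 beside 132, 116 and 120 for Cox7a2 and 100, 84.0 and 92.3 for Cox7a2l. The heart and muscle gene Cox6a2 and the genes Cox8b and Cox8c had no row, so Cox6a1 and Cox8a stood alone in their families, at 387 and 366 in NT.

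Cox6b2, the form known from testis, was the exception. Its counts were 131 in NT, 117 in IWR1 and 198 in Y27, and its FPKM 43.0, 40.9 and 70.4, beside 352, 315 and 275 for Cox6b1. Cox6b2 thus made up 10.9% of the FPKM of the pair in NT, 11.5% in IWR1 and 20.4% in Y27. Testis germ cell markers were at or near 0: Ddx4 and Dazl had no row, and Sycp3 stood at 0, 0.179 and 0.896 CPM.

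Between libraries, most of these genes were lower in IWR1 and in Y27 than in NT, each by a small amount. Summed over the set, levels were 11473 CPM in NT, 10140 CPM in IWR1 and 9428 CPM in Y27. The sum in IWR1 was 1.13-fold lower than in NT (exact conditional binomial 95% interval 1.12 to 1.14, counting error only), and in Y27 it was 1.22-fold lower (1.20 to 1.23). Of 89 genes, 73 were lower in IWR1 and 79 in Y27, where 50.3% and 51.8% of all 12955 genes compared were lower. The median log2 difference (of CPM + 1) was -0.17 in IWR1 and -0.25 in Y27, with medians over all genes of -0.00 and -0.02. Both comparisons share the NT library, so a chance excess in NT would lower both. NT was the highest of the 3 libraries for 71 of the 89 genes (79.8%), against 38.3% of all genes, and the lowest for 8 (8.99%), against 36.2%.

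**Figure D2:**
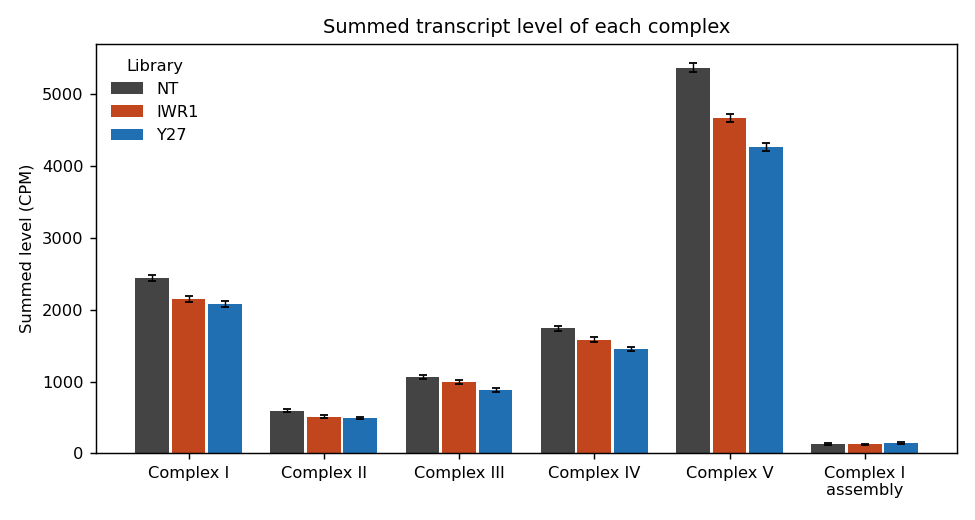
Summed level of each complex in NT, IWR1 and Y27, in CPM of scaled counts (bars from 0), with exact Poisson 95% intervals that cover counting error only. NT has the highest bar for complexes I to V, and Y27 the highest for the complex I assembly factors, which without Ndufaf4 are highest in NT.

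On the log2 scale of CPM + 1, no gene of the set reached a 2-fold difference in any pair of libraries. Of all genes compared, 2.29% were at least 2-fold higher and 2.25% at least 2-fold lower in IWR1 than in NT, and 5.58% and 1.34% in Y27 than in NT. A finer call is whether the 95% counting interval of a gene's fold excludes 1, which compares these libraries and not the conditions, and which a deeply sequenced gene passes more easily. By that call 3 genes of the set were higher and 41 lower in IWR1 than in NT, where 20.3% of all genes were higher and 19.1% lower. In Y27 against NT 5 were higher and 55 lower, where 22% and 22.9% of all genes were. The genes of the set were deeper than most, with a median of 475 reads in NT against 159 over all genes compared.

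Each of complexes I, II, III, IV and V showed the same direction in its sum. The fold in IWR1 was 1.14 lower for complex I, 1.16 for II, 1.07 for III, 1.10 for IV and 1.15 for V. In Y27 it was 1.18, 1.20, 1.21, 1.20 and 1.26 lower. The medians of the log2 difference in IWR1 were -0.22, -0.25, -0.08, -0.14 and -0.17, and in Y27 -0.25, -0.34, -0.27, -0.28 and -0.30. These directions were the same under library-total, DESeq2 and upper-quartile scaling. The complex I assembly factors stood apart: 4 of 8 were lower in IWR1 and 6 of 8 in Y27, with median differences of -0.01 and -0.08, and the sign of the former turned to 0.01 under library-total scaling. Their summed level was highest in Y27 with Ndufaf4 in the sum, at 740, 698 and 825 counts. Without Ndufaf4, left out after seeing the data, it was 98.7 CPM in NT, 90.5 CPM in IWR1 and 91.0 CPM in Y27.

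**Figure D3:**
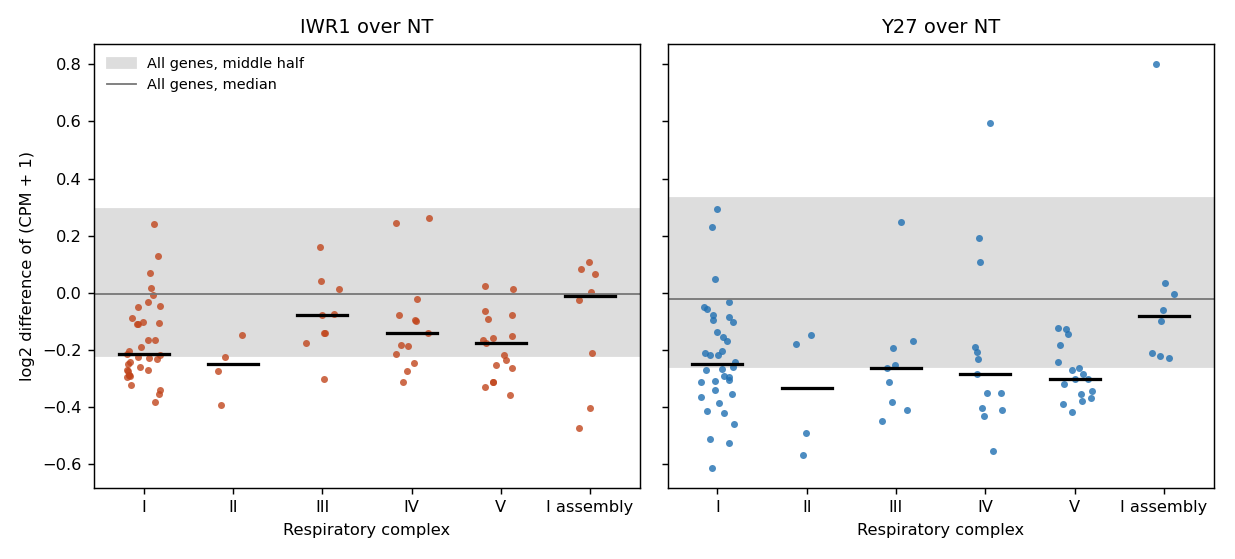
Log2 difference of CPM + 1 of each gene by complex, for IWR1 over NT and Y27 over NT. The grey band is the quartile range over all genes compared. Most points lie below 0 in the comparisons with NT, and Ndufaf4 and Cox6b2 lie highest in Y27 over NT, at 0.80 and 0.59.

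Complex I was lower in IWR1 for 32 of 36 genes and in Y27 for 33 of 36. Ndufs8, a core subunit that holds iron-sulfur clusters, had 282 counts in NT, 219 in IWR1 and 180 in Y27. NT was highest and Y27 lowest, and the fold in Y27 was 1.55 lower (1.28 to 1.87). Ndufb2, an accessory subunit of the membrane arm, had 169, 155 and 114 counts, a fold of 1.46 lower in Y27 (1.15 to 1.87) and, with 1.08 lower in IWR1 (0.863 to 1.35), a difference from NT in IWR1 that was within counting error. Ndufa11, whose promoter is printed above, had 493, 397 and 339 counts and was 1.23-fold lower in IWR1 (1.08 to 1.41) and 1.44-fold lower in Y27 (1.25 to 1.65).

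A few complex I genes ran the other way. Ndufs1, the largest core subunit of the electron path, had expected counts of 536, 628.29 and 621.24, with NT the lowest. It was 1.18-fold higher in IWR1 (1.05 to 1.33) and 1.17-fold higher in Y27 (1.04 to 1.32). Ndufs3, another core subunit, had 349, 363 and 356 counts, within counting error in both. Ndufa5, an accessory subunit, had 133, 131 and 162 counts, and its 1.23-fold higher level in Y27 was also within counting error (0.975 to 1.56).

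Ndufs5, an accessory subunit, shares reads with its pseudogene Ndufs5-ps. Its expected counts were 140.48, 130.55 and 99.34, and those of the pseudogene 100.52, 104.45 and 103.66. They add up to the whole numbers 241, 235 and 203, so the split between them is an estimate. Taken as a sum, the pair was 1.02-fold lower in IWR1 (0.845 to 1.22) and 1.17-fold lower in Y27 (0.968 to 1.42), both within counting error, whereas Ndufs5 alone was 1.40-fold lower in Y27 (1.07 to 1.82). Ndufa7, Ndufs1, Ndufaf7 and Cox7c also had fractional counts, so some of their reads matched more than 1 gene.

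Ndufaf4, an assembly factor of complex I, showed the largest difference of the set. Its counts were 182 in NT, 191 in IWR1 and 317 in Y27, or 32.2, 34.1 and 56.8 CPM. NT and IWR1 differed by less than counting error (1.06-fold higher, 0.861 to 1.31) and Y27 stood above both, 1.77-fold over NT (1.47 to 2.13). Ndufaf4 was also the longest transcript of the set, at 3632 bases, and had a GC content of 39.5%. With the trend of all genes on length and GC removed, its log2 difference from NT in Y27 went from 0.80 to 0.04. The same removal took its difference from NT in IWR1 from 0.08 to -0.41, and that of IWR1 over Y27 from -0.72 to -0.46. Ndufaf1, which joins an early step of assembly, had 99, 69 and 83 counts and was 1.42-fold lower in IWR1 (1.03 to 1.96). Ndufaf5 had 58, 42 and 53 counts, too few to tell its 1.37-fold lower level in IWR1 from counting error (0.903 to 2.08).

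In complex II all 4 genes were lower than NT in both treated libraries. Sdhc, a membrane anchor that helps to bind ubiquinone and heme, had 482, 362 and 319 counts, and was 1.32-fold lower in IWR1 (1.15 to 1.52) and 1.49-fold lower in Y27 (1.29 to 1.72). Sdhb had 514, 420 and 359 counts and folds of 1.21 lower (1.06 to 1.38) and 1.41 lower (1.23 to 1.62). Sdha, with 1648, 1473 and 1436 counts, was 1.11-fold lower (1.03 to 1.19) and 1.13-fold lower (1.05 to 1.22). Sdhd, with 703, 595 and 626 counts, was 1.17-fold lower in IWR1 (1.05 to 1.31), and its 1.11-fold lower level in Y27 was within counting error (0.994 to 1.24). NT was highest for all 4, and Sdhb and Sdhc, the lower pair by level, differed more than Sdha and Sdhd in Y27.

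For complex III, 6 of 9 genes were lower in IWR1 and 8 of 9 in Y27. In Y27 the counting interval excluded 1 for all 9, with 1 above and 8 below. Of all genes, 22% were above and 22.9% below by that call. Under library-total scaling 1 of the 9 was above and 5 below, where 3246 and 2355 of all 12955 genes were. Uqcrq had 667, 584 and 494 counts, 1.13-fold lower in IWR1 and 1.33-fold lower in Y27, both beyond counting error. Uqcrc1 had 1340, 1201 and 1013 counts, 1.10-fold and 1.31-fold lower. The gene on the other side was Uqcrb, the ubiquinone-binding subunit, with 311, 345 and 365 counts and a 1.19-fold higher level in Y27 (1.02 to 1.39). The Rieske iron-sulfur protein gene Uqcrfs1 had 537, 547 and 462 counts, within counting error of NT in IWR1 and 1.15-fold lower in Y27, beyond counting error.

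In complex IV, 11 of the 13 genes that passed the filter were lower in IWR1 and 10 in Y27. Cox4i1, the largest nuclear-encoded subunit of the enzyme, had 1594, 1305 and 1164 counts and was 1.21-fold lower in IWR1, beyond counting error, and 1.35-fold lower in Y27 (1.25 to 1.46). Cox6a1, whose promoter is printed above, had 1130, 899 and 872 counts, 1.24-fold (1.14 to 1.36) and 1.28-fold lower (1.17 to 1.40). Cox8a had 1093, 1024 and 813 counts, within counting error in IWR1 and 1.33-fold lower in Y27 (1.21 to 1.45). Such subunits surround the catalytic core that mitochondrial DNA encodes.

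The complex IV genes above NT were Ndufa4, Cox7b and Cox6b2. Ndufa4, once counted as a complex I subunit and now placed in complex IV, had 630, 749 and 670 counts, 1.20-fold higher in IWR1 (1.08 to 1.34) and 1.08-fold higher in Y27, the latter within counting error (0.965 to 1.20). Cox7b had 424, 498 and 479 counts, 1.19-fold higher in IWR1 (1.04 to 1.35) and 1.14-fold higher in Y27 (1.00 to 1.31). Their GC content was 44.1% and 42.0%. With the length and GC trend removed, the log2 difference in IWR1 went from 0.26 to 0.24 for Ndufa4 and from 0.24 to 0.08 for Cox7b. In Y27 it stayed at 0.11 for Ndufa4 and went from 0.19 to -0.02 for Cox7b. Atp5md of complex V, at 44.2% GC, was 1.29-fold lower in IWR1 and 1.31-fold lower in Y27. The part of GC content in these differences was not tested. Cox6b2, at 55.0% GC, was 1.53-fold higher in Y27 than in NT (1.22 to 1.92), and removing the length and GC trend took its log2 difference from 0.59 to 0.85. Its level in IWR1 was within counting error of NT. Cox7a1 had only 22, 20 and 13 counts, and its 1.67-fold lower level in Y27 had an interval of 0.805 to 3.61.

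**Figure D4:**
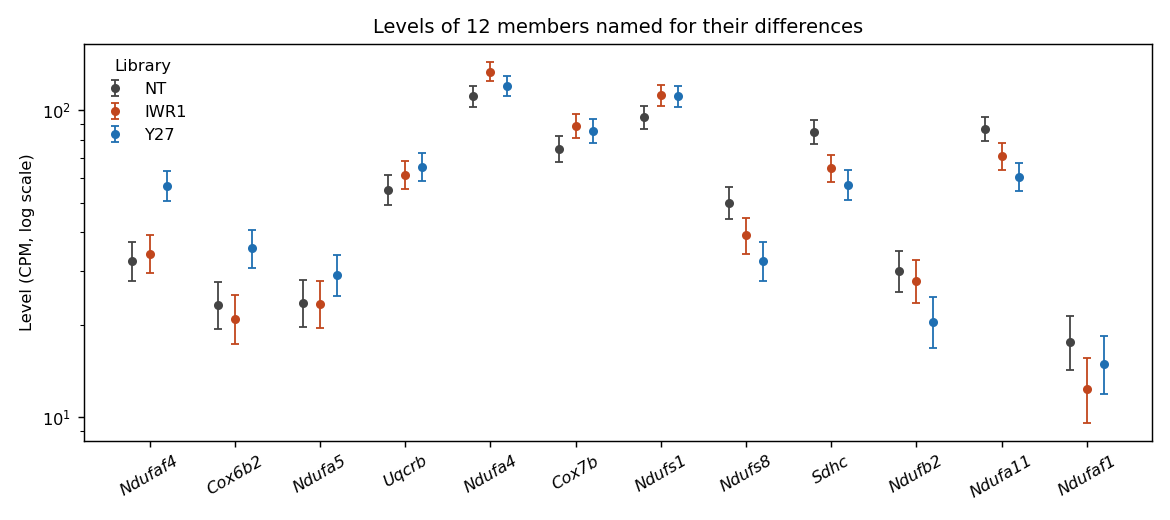
Level of 12 genes named for their differences, in CPM on a log axis, in NT, IWR1 and Y27; bars are exact Poisson 95% intervals of the counts. Ndufaf4 and Cox6b2 stand highest in Y27, at 56.8 and 35.5 CPM, and Ndufs8 and Sdhc stand highest in NT, at 49.9 and 85.3 CPM.

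Complex V was lower for 15 of 17 genes in IWR1 and for all 17 in Y27. Atp5b had 11364, 9429 and 8546 counts, 1.19-fold lower in IWR1 (1.16 to 1.23) and 1.31-fold lower in Y27 (1.28 to 1.35). Atp5a1 had 5782, 5105 and 4415 counts, 1.12-fold (1.08 to 1.16) and 1.29-fold lower (1.24 to 1.34). Both therefore followed the order NT, IWR1, Y27, with gaps wider than counting error. Atp5c1, the gamma subunit of the central stalk, had 1113, 875 and 913 counts, 1.26-fold lower in IWR1 (1.15 to 1.38) and 1.20-fold lower in Y27 (1.10 to 1.31).

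Among the c subunit genes, Atp5g1 had 704, 708 and 555 counts, and IWR1 and NT were within counting error (1.02-fold, 0.914 to 1.13). Atp5g2 had 1338, 1173 and 1038 counts, 1.13-fold lower in IWR1 (1.04 to 1.22), and Atp5g3 had 1906, 1688 and 1544, 1.12-fold lower (1.05 to 1.19). In Y27 all 3 were lower, by 1.25, 1.27 and 1.22 times. Atp5pb, the stator subunit b, was also within counting error of NT in IWR1, with 1636, 1636 and 1479 counts.

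Set side by side, IWR1 was above Y27 for 71 of 89 genes and below for 18, where 49.9% of all genes were below. Under library-total scaling 32 of 89 were below, where 7003 of all 12955 genes were. The sum was 1.08-fold higher in IWR1 (1.06 to 1.09). The median log2 difference was 0.06, with 0.00 over all genes; with length and GC removed these were 0.04 and 0.04, and with length alone removed 0.02 and 0.04. The counting interval excluded 1 for 22 genes above and 3 below, where 16.3% and 16.1% of all genes were. Under library-total scaling these counts were 14 and 4, where 1755 of all 12955 genes were above and 2385 below. No gene of the set reached 2-fold, where 1.38% of all genes were at least 2-fold higher and 2.9% at least 2-fold lower. Those below were Cox6b2, 1.70-fold (1.34 to 2.15), Ndufaf4, 1.67-fold (1.39 to 2.00), and the core complex I gene Ndufs7, 1.18-fold (1.00 to 1.40), with 332, 271 and 320 counts in NT, IWR1 and Y27. Among those above, Ndufb2 was 1.36-fold (1.06 to 1.74), Ndufs5 1.31-fold with the shared reads described above, and Atp5g1 1.27-fold (1.14 to 1.42). In complex III 8 of 9 and in complex V 16 of 17 were above, and in complex I 28 of 36. Under library-total scaling, 1 of 9 in complex III, 3 of 17 in complex V and 16 of 36 in complex I were below.

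Length and GC content moved with these differences across all genes. Over all 12955 genes, longer transcripts were higher in the treated libraries (Pearson r 0.21 in IWR1 and 0.31 in Y27 with log length) and GC-rich ones lower (r -0.39 and -0.51 over the 12825 with a GC value). Among the set r with log length was 0.07 in IWR1 and 0.22 in Y27 over 89 genes. With GC it was -0.40 in IWR1 and -0.41 in Y27 over 88 genes. These correlations are across genes that share the libraries. A cubic curve in log length fitted to all genes put the set at a median of -0.14 in IWR1 and -0.20 in Y27. With that curve removed the medians of the set were -0.04 and -0.08, and those of all genes -0.03 and -0.07. With length and GC both removed they were -0.04 and -0.08 in the set and -0.00 and -0.03 over all genes, with 55 and 62 of 89 genes below 0. Of all 12955 genes, 6492 and 7014 then lay below 0. The summed level stayed lower after that removal, by a log2 ratio of -0.07 in IWR1 and -0.13 in Y27 against -0.18 and -0.28 before. The curve's medians at the lengths of the set, -0.14 and -0.20, stand beside median differences of the set of -0.17 and -0.25. The part of length in these differences was not tested.

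**Figure D5:**
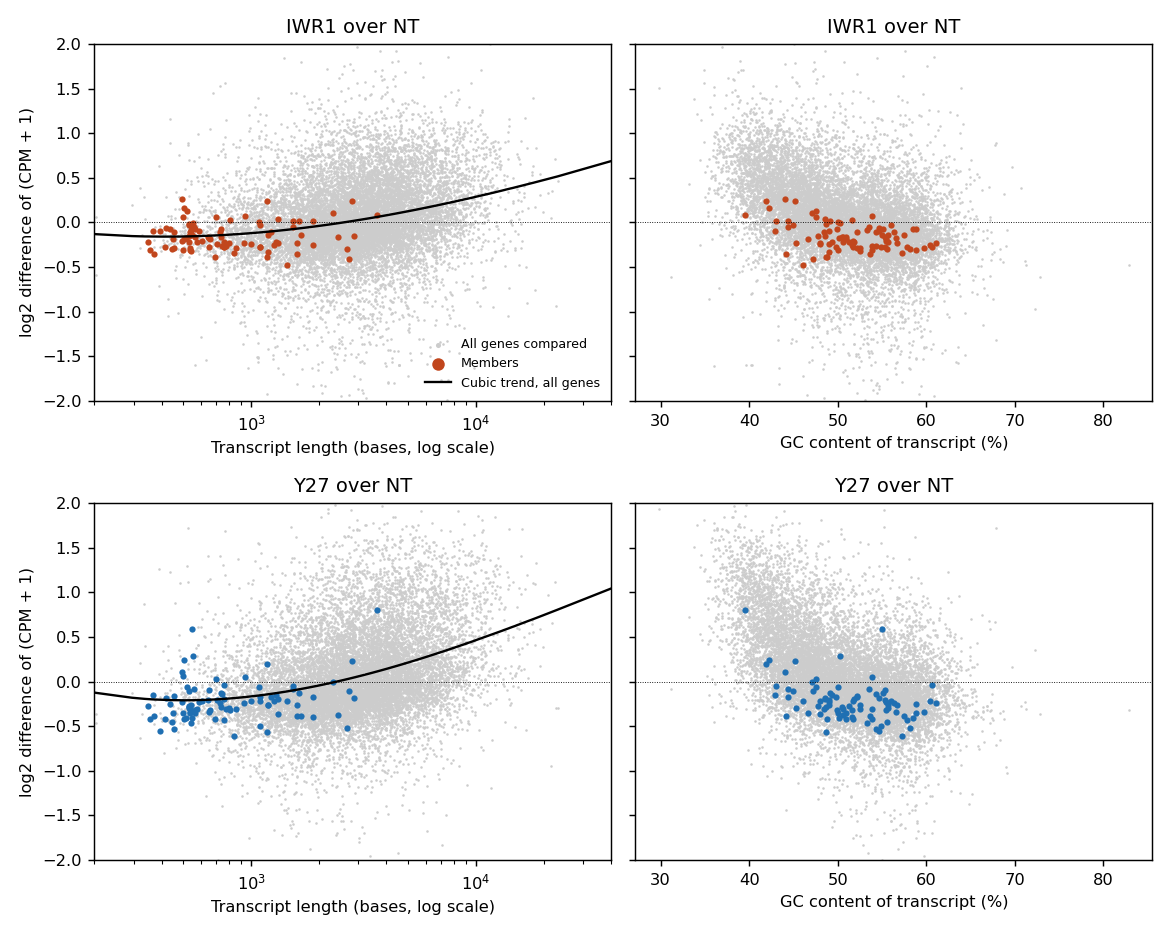
Log2 difference of CPM + 1 against transcript length (left, log axis, with the cubic curve over all genes) and GC content (right), for IWR1 over NT and Y27 over NT; grey points are all genes compared, coloured points the genes of the set, and points beyond the axes are not drawn. The set lies at short lengths, where the curve is below 0.

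The genes of complex II kept the largest differences from that trend as a group: with length and GC removed the median was -0.16 in IWR1 and -0.22 in Y27, with all 4 below 0 in both. For complex V it was -0.09 and -0.11, and for complex III 0.06 and -0.13, with the sign in IWR1 turned. For complex I it was -0.04 and -0.06, and for complex IV -0.01 and -0.08. For the assembly factors it was 0.03 and 0.03, with the sign turned in both. Sdhc went from -0.57 to -0.46 in Y27 and Ndufs8 from -0.61 to -0.33. Ndufs1, higher in both treated libraries, went from 0.24 to 0.09 in IWR1 and from 0.23 to 0.02 in Y27.

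Genes that serve the same pathway were read from 7 further lists, and none of their members that passed the filter reached 2-fold on the log2 scale of CPM + 1. Ppargc1b, with 6 and 13 counts in NT and IWR1, had a fold of 2.19 without the pseudocount (0.776 to 7.02). The shares of all genes that were lower, 50.3% in IWR1 and 51.8% in Y27, stand beside the counts that follow. Of 33 assembly factors and copper chaperones, 24 were lower in IWR1 and 25 in Y27, with median log2 differences of -0.10 and -0.15, or -0.05 and -0.13 with length and GC removed. Cox10, which makes heme for complex IV, had 281, 229 and 174 counts and was 1.59-fold lower in Y27 (1.31 to 1.94). Uqcc2, an assembly factor of complex III, had 269, 216 and 167 counts and was also 1.59-fold lower there (1.31 to 1.94). Ttc19, which acts on complex III, was 1.54-fold higher in IWR1 (1.18 to 2.01), with expected counts of 96, 146 and 142.73. Cox14, an assembly factor of complex IV, had 86, 56 and 89 counts, lowest in IWR1 by 1.52-fold against NT (1.07 to 2.17).

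Mitochondrial ribosomal proteins translate the subunits that mitochondrial DNA encodes, and their genes leaned the same way: 58 of 78 were lower in IWR1 and 65 of 78 in Y27, with medians of -0.15 and -0.24. With length and GC removed the medians were -0.03 and -0.09 (-0.00 and -0.03 over all genes), with 45 and 55 of 78 below 0. Of all 12955 genes, 6492 and 7014 were below 0 with that removal. The list of carriers and uncouplers, with outer membrane channels and the creatine kinase gene Ckmt1 among them, had 8 genes past the filter. Of these, 7 were lower in IWR1 and 8 in Y27, with medians of -0.14 and -0.28, or -0.09 and -0.19 with the trend removed. Ckmt1 had 99, 95 and 63 counts and was 1.55-fold lower in Y27 (1.12 to 2.16). Vdac2, an outer membrane channel, had 1955, 1546 and 1440 counts, 1.25-fold lower in IWR1 (1.17 to 1.34) and 1.34-fold lower in Y27 (1.25 to 1.44). Of 21 genes of the TCA cycle and pyruvate entry, 12 were lower in IWR1 and 18 in Y27, with medians of -0.06 and -0.21, or -0.06 and -0.14 with the trend removed. Pdhb, a subunit of pyruvate dehydrogenase, had 1097, 792 and 711 counts and was 1.52-fold lower in Y27 (1.38 to 1.68), while Sucla2, of succinyl-CoA ligase, had 244, 293 and 366 counts and was 1.52-fold higher there (1.29 to 1.79). Cs, citrate synthase, had 1249, 1217 and 951 counts and was 1.28-fold higher in IWR1 than in Y27 (1.17 to 1.39).

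Ubiquinone synthesis and cytochrome c genes were lower for 7 of 15 in IWR1 and 11 of 15 in Y27, with medians of 0.01 and -0.10, or -0.05 and -0.15 with the trend removed. Coq6, a ubiquinone hydroxylase, had 176, 139 and 121 counts and was 1.44-fold lower in Y27 (1.13 to 1.82). Of 11 genes that maintain and transcribe mitochondrial DNA, 4 were lower in IWR1 and 5 in Y27, with medians of 0.20 and 0.06. With the trend removed the medians were 0.01 and 0.09, with 5 of 11 below 0 in each. Mterf3, a repressor of mitochondrial transcription, had 81, 114 and 145 counts and was 1.42-fold higher in IWR1 (1.06 to 1.91) and 1.81-fold higher in Y27 (1.37 to 2.41), while Tfb1m, which modifies mitochondrial ribosomal RNA, was 1.63-fold lower in Y27 (1.13 to 2.35).

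Among the nuclear regulators, 8 of 12 passed the filter, with 2 lower in IWR1 and 4 in Y27 and medians of 0.13 and 0.04, or 0.13 and -0.00 with the trend removed. Gabpa, the DNA-binding subunit of GABP, had 290, 408 and 483 counts, 1.42-fold higher in IWR1 (1.22 to 1.66) and 1.69-fold higher in Y27 (1.46 to 1.96). With the length and GC trend removed its log2 differences went from 0.50 to 0.04 and from 0.74 to 0.05. It overlaps Atp5j in the annotation, and no source used here says that the counting used strand, so reads of the overlap cannot be told apart. Atp5j itself had 570, 534 and 516 counts, within counting error of NT in both. Pprc1, a coactivator of NRF1, had 1173, 1314 and 994 counts and was 1.32-fold higher in IWR1 than in Y27 (1.21 to 1.43), and Myc had 415, 449 and 348 counts, 1.29-fold higher (1.12 to 1.48).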

How the data were processed

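RNA of 3 libraries was used. The authors deposited an expected count per gene, an estimate that is not normalized. The FPKM values, as deposited, followed from count, transcript length less 36.0 bases, and a library total 1.66% to 1.81% above the listed sum. Submitters' processing notes name Bowtie 0.12.2 and mm8, with the counting tool not given in the sources used here. A gene absent from a table was taken as 0.

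Counts were scaled by TMM (edgeR 4.0.16, R 4.3.3) and compared as log2 of CPM with a pseudocount of 1 CPM. Expected counts were rounded for intervals. Names and promoters came from RefSeq GRCm38.p6 and GC content from GENCODE transcripts of that assembly (99.0% of genes compared; the others were set to the median), which is not mm8. Python 3.11.15 did the rest, and the steps were tested on simulated data. Named were the highest and lowest FPKM per complex, the 3 largest differences each way per pair (at least 30 reads), isoform families, Sdh genes and up to 2 per pathway list and pair. Others named (core subunits, partner subunits, genes with a printed promoter) were chosen after their values were seen. Members, lists and alternatives were chosen with earlier results of these data known.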

Additional observations from a re-analysis of the deposited data

How the results depend on the processing

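No paired analysis was possible because each group had 1 library and the labels gave no replicate numbers. The sums, medians and counts taken over the whole set kept their direction, read against 0, under the alternatives run. Read against all genes, the median for IWR1 over Y27 did not. It was above that of all genes at first, and below with length removed (0.02 against 0.04). With length and GC removed the medians were 0.0445 in the set and 0.0350 over all genes. By complex the directions did not all hold against 0, and the turns included these. The median of the assembly factors turned by library total from -0.01 to 0.01 (IWR1 over NT) and from 0.02 to -0.01 (IWR1 over Y27). With length and GC removed it turned in all pairs, to 0.03, 0.03 (Y27 over NT, from -0.08) and -0.03. In IWR1 over NT the median of complex III turned from -0.08 to 0.06 with length and GC removed. That of complex IV turned from -0.14 to 0.01 with length alone removed. For complex I in IWR1 over Y27, genes whose interval excluded 1 went from 4 above and 1 below to 1 above and 2 below by library total. The log2 ratio of summed counts, in the order IWR1 over NT, Y27 over NT and IWR1 over Y27, was -0.18, -0.28 and 0.11, and it became -0.15, -0.22 and 0.0690 from deposited FPKM, -0.15, -0.22 and 0.0713 by library total, -0.22, -0.35 and 0.12 by upper quartile, -0.0796, -0.15 and 0.0759 with the length trend removed and -0.0678, -0.13 and 0.0661 with length and GC removed. Without Atp5a1 and Atp5b, an alternative chosen after seeing the data, it was -0.25 for Y27 over NT and 0.0865 for IWR1 over Y27. The number of genes lower in IWR1 than in Y27, 18, became 32 from FPKM and by library total, 33 with the length trend removed and 34 with length and GC removed. Of all 12955 genes, 7003 were lower by library total, 5825 with length removed and 5821 with length and GC removed. At a 1.5-fold threshold on the log2 scale of CPM + 1, 3 genes differed between Y27 and NT and 2 between IWR1 and Y27, where none reached 2-fold. The share of all genes past 1.5-fold was not counted, so these numbers cannot be called many or few. Cox7a1 passed 1.5-fold only without the pseudocount. The median FPKM of complex V over that of complex I in NT was 2.96, and 2.76 as TPM. The medians were set against the counting interval of a typical gene, which is wider than the error of a median. With length and GC removed they shrank from -0.17 to -0.04 (IWR1 over NT), from -0.25 to -0.08 (Y27 over NT) and from 0.06 to 0.04 (IWR1 over Y27). The cause of these shifts was not tested. Depth limits single genes most: the assembly factors had a median of 77.0 reads in NT and Cox7a1 had 22, so small folds in them were within counting error. Intervals cover counting error only, and differences between cultures were not measured.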
